A study of Mus musculus with 15 samples.

Results

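The replication-dependent histone genes encode the linker histones (H1) and the core histones (H2A, H2B, H3 and H4) that package newly made DNA. They were taken as the genes of the count table whose symbol belongs to the families H1f1 to H1f5, H2ac, H2bc, H3c or H4c and that had at least 10 counts summed over all libraries, which kept 59 of 67 such genes, out of 57186 genes listed and 19839 genes with that many counts. The 59 genes are 5 H1, 16 H2A, 15 H2B, 11 H3 and 12 H4 genes, of which 49 lie on chromosome 13, 8 on chromosome 3, 1 on chromosome 11 and 1 on chromosome 6. The gene nearest to the threshold inside was H2bc24 with 10 counts. The 8 genes outside it were H2bc26 and H4c17 with 4 counts each, H2bc23 with 3, H2bc27 with 2, and H2ac1, H2ac18, H2bc1 and H3c14 with 0.

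RAW 264.7, a mouse macrophage line transformed by the Abelson leukaemia virus, was treated for 6 h with silica nanoparticles (SNPs) or left nontreated (Control), and RNA was sequenced from 3 libraries of each of the 5 groups. SNP100 and SNP50 are nonporous solid particles, the first the larger in diameter, given at 50 and 25 µg/mL. MSNP is a mesoporous particle and HMSNP a hollow mesoporous one, both given at 200 µg/mL, so that only these 2 share dose and time while every other pair of particles also differs in dose. They differ in more than the hollow core, since the study's text describes HMSNP as also differing in density, surface composition and measured diameter. The sources do not say whether the 3 libraries of a group came from separate cultures, so the p-values measure the spread between these libraries, which may be technical. That spread was estimated over all 15 libraries together. Tests against Control thus also draw on the treated groups, whose libraries stood closer together than the Control libraries. The library names of each group begin with a number of their own (5 in all), which the labels do not explain, and whatever it marks cannot be told apart from the treatment.

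In most mRNAs a poly(A) tail marks the end. Replication-dependent histone mRNAs instead end just past a short stem-loop that is bound by the stem-loop binding protein SLBP, and they are made and kept mainly while a cell copies its DNA in S phase. The libraries here were made after isolation of poly(A) RNA, so the counts can come from histone RNAs that were polyadenylated or that were carried along with the selected RNA. Rn7sk (7SK RNA) and Rpph1 (the RNA of ribonuclease P), which also lack a poly(A) tail, were therefore read in every library beside the histone genes. In bulk RNA, fewer cells in S phase and less histone RNA per cell cannot be told apart.

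The stem-loop is shown for the 5 linker histone genes, on which the results turn, and for 3 core histone genes. Each run is read from GRCm39 on the strand of the gene, with the 16 bases of the stem-loop in capitals between 5 bases on either side.
H1f1: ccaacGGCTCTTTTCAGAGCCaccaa
H1f2: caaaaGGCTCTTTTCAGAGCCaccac
H1f3: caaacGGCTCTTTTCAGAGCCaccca
H1f4: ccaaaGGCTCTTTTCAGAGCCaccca
H1f5: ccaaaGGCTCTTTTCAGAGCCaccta
H2ac15: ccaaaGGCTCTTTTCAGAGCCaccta
H4c4: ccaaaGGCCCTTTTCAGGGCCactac
H4c9: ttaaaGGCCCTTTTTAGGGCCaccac
The search took any stem of 6 bases that begins with GGC and pairs without a mismatch across a loop of 4 bases that begins with TTT. It was met on the coding strand within 200 bases after the stop codon in 53 of the 59 genes, at 21 to 58 bases from it, against 0.305% of 21665 protein-coding genes. The pattern was written from knowledge of the histone stem-loop, so a high share in this set was built in. The 66 protein-coding genes that met it include these 53, and the 13 others are histone genes except Kcnc4. The 5 H1 genes share the same 16 letters, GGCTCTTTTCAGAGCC, with 31 other genes of the set (36 in all), whereas H4c4 carries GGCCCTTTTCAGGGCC, found in 7 genes, and H4c9 carries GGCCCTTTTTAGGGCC, found in 2. No match was found in H2ac22, H2bc21, H3c8, H4c1, H4c2 or H4c11. The annotated gene ends 840 bases past the stem-loop in H1f2, 4884 in H1f3 and 1153 in H1f4. It ends within the last bases of the stem-loop in H1f1 and before the stem-loop in H1f5. At least 200 annotated bases lay past the stem-loop in 20 of the 53 genes.

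The region around the start of transcription is shown for the 4 H1 genes that share a 7-base motif there, in RefSeq's table for GRCm38.p6 (250 bases before to 50 after the start, on the strand of the gene). Capitals mark AAACACA, a motif long known from H1 promoters, and CCAAT or its reverse complement ATTGG.
H1f2 (chr13:23738557-23738856, plus strand): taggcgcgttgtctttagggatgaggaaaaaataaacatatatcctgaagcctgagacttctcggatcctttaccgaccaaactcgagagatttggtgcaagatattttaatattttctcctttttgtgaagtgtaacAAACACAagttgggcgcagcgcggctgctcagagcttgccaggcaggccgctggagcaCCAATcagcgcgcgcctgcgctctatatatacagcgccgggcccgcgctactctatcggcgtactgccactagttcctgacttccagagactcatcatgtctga
H1f3 (chr13:23554782-23555081, plus strand): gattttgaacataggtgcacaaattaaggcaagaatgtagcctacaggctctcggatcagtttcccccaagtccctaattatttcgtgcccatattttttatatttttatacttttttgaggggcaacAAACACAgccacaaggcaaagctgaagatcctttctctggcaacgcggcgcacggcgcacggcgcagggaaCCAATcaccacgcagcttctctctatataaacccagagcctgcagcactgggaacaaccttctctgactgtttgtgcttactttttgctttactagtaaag
H1f4 (chr13:23622509-23622808, minus strand): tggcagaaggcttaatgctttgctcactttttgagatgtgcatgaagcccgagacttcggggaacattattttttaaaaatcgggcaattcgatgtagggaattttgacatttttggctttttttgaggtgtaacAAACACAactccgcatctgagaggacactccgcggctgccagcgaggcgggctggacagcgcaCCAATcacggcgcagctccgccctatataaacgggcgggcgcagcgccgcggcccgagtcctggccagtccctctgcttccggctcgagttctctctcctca
H1f5 (chr13:21780576-21780875, minus strand): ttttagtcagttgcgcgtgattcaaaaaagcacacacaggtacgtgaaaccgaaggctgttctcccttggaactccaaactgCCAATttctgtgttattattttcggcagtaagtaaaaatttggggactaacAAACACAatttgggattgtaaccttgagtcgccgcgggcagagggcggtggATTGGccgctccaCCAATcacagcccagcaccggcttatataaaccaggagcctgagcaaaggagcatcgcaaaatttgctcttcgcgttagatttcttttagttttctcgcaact
On either strand, AAACACA was found in 4 of 5 H1 promoters (not in H1f1), in 1 of 15 H2A and 1 of 12 H2B promoters and in 0 of 9 H3 and 0 of 10 H4 promoters, against 7.138% of 27025 promoters. CCAAT was found in 44 of the 51 promoters matched (all 5 H1, 15 H2A, 12 H2B and 9 H3, but 3 of 10 H4), against 37.92% of all promoters. The 2 motifs do not overlap in these 4 sequences, and a match of letters shows no bound factor.

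Total counts lay between 29369934 and 42617812 per library, and 3 counts correspond to 0.0687 to 0.101 counts per 1000000 (CPM, normalised by the TMM method). The macrophage markers Adgre1, Cd68, Csf1r, Lyz2, Itgam and Cd14 summed to 12979 to 19822 CPM per library, while T cell, B cell and fibroblast markers summed to at most 0.397, 0.136 and 0.085 CPM, and no epithelial marker reached 10 counts in all. The Control libraries stood further apart from each other than the libraries of any treated group, with a mean chi-square per gene of 73.1 to 226 between pairs against 4.95 to 15.3. Control replicate 3 stood furthest apart, at 192 and 226 from replicates 1 and 2 against 73.1 between those 2, and Control replicate 1 had the highest carry-over of all. Rn7sk stood at 9.74, 0.318 and 0.573 CPM in Control replicates 1 to 3, at 1.25, 4.33 and 0.803 in SNP100, at 1.18, 1.47 and 1.44 in SNP50, at 0.331, 1.43 and 0.563 in MSNP and at 0.353, 0.186 and 0.138 in HMSNP. Rpph1 read 5.36, 0.289 and 0.338 CPM in Control, 0.468, 1.42 and 0.332 in SNP100, 0.776, 0.652 and 0.544 in SNP50, 0.198, 0.378 and 0.356 in MSNP and 0.117, 0.0796 and 0.138 in HMSNP. Both RNAs were thus high in Control replicate 1 and SNP100 replicate 2 and low in the HMSNP libraries.

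Replication-dependent histone RNA was scarce in all libraries. The 59 genes summed to 32.8 to 69.1 CPM per library. The 10 replacement histone genes tested, listed as polyadenylated, such as H3f3b (histone H3.3), summed to 1958 to 2943 CPM. One gene, H1f2 (linker histone H1.2), gave 37.6% of all counts of the set. Mean levels over the 15 libraries ran from 0.0195 CPM to 16.3 CPM for H1f2, and 50 of the 59 genes had a mean under 1 CPM. Per kilobase of annotated exon the highest mean levels were those of H1f2 (10.4 CPM per kb), H2ac15 (8.75), H2ac23 (3.15), H2ac22 (3.07) and H4c9 (1.86), followed by H2bc21 (1.38), with H1f5, H1f1, H1f4 and H1f3 at 0.988, 0.401, 0.387 and 0.154 CPM per kb.

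**Figure D1:**
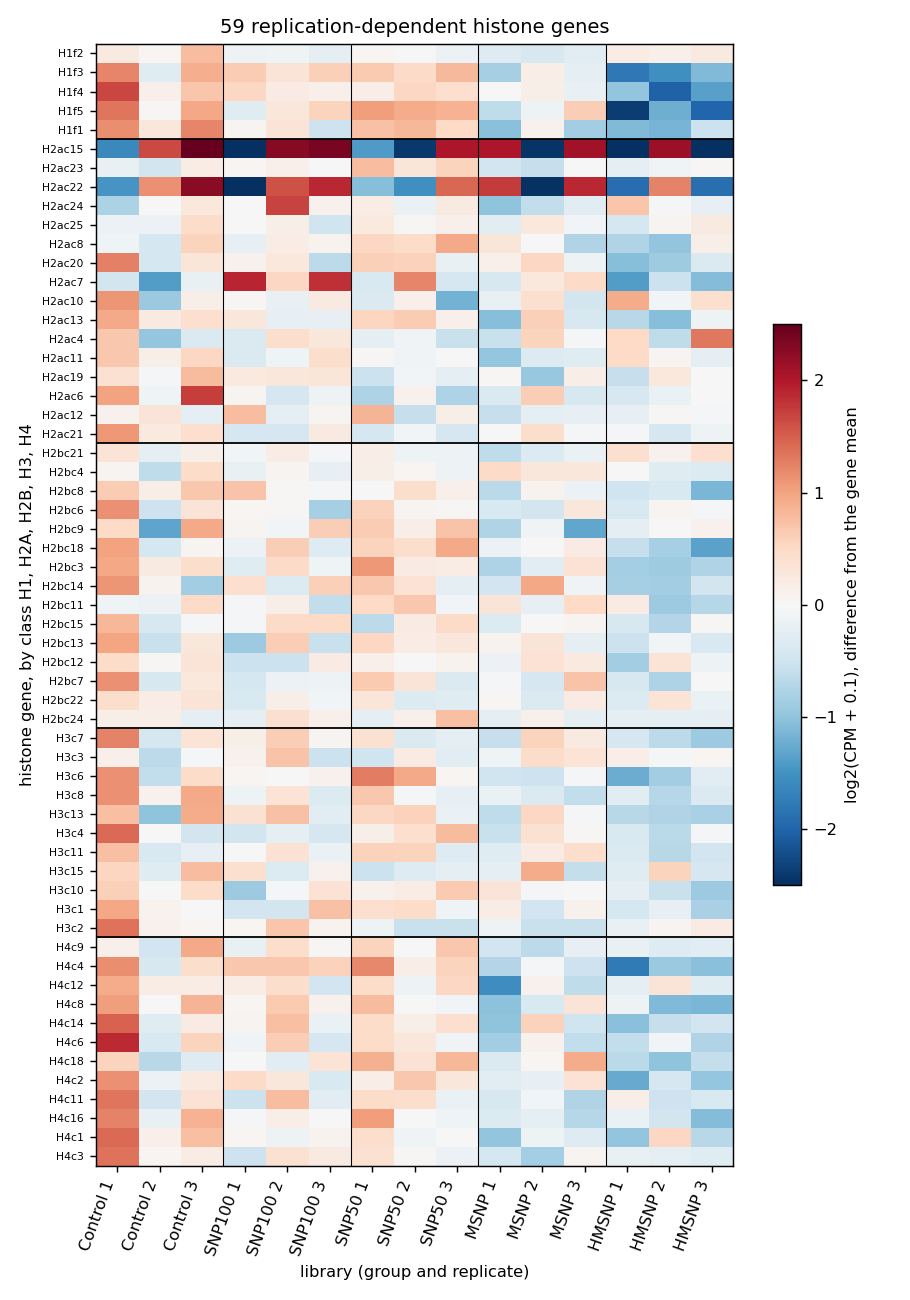
Level of each of the 59 histone genes (rows, by class and within a class by mean level) in each of the 15 libraries (columns), as log2(CPM + 0.1) minus the gene's own mean. Control 1 is red in most rows and is the highest library for 31 of the 59 genes, the HMSNP columns are blue in H1f3, H1f4 and H1f5, and H2ac15 and H2ac22 switch between red and blue within every group.

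The linker histone genes H1f3, H1f4 and H1f5 were lower in HMSNP-treated cells than in Control and than in MSNP-treated cells, and in each of the 3 genes every HMSNP library lay below all 12 other libraries. H1 proteins bind the DNA between nucleosomes, and these 3 genes encode the variants H1.3, H1.4 and H1.5. H1f2, which encodes H1.2 and is the highest of the set, did not follow them.

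H1f5 (chr13:21964053-21964795, minus strand, GRCm39) gave 52, 20 and 46 counts in Control, or 1.58, 0.578 and 1.20 CPM. In HMSNP it gave 1, 7 and 3 counts, or 0.0294, 0.186 and 0.0687 CPM, and in MSNP 0.331, 0.513 and 0.919 CPM. The SNP100 libraries lay at 0.442, 0.708 and 0.886 CPM and the SNP50 libraries at 1.28, 1.16 and 1.12 CPM. The 3 HMSNP libraries were the lowest of the 15, and no library of another group overlapped with them. H1f5 was 0.0882 times the Control level in HMSNP, with a log2 fold change of -3.50 (SE 0.54, adjusted p = 0.0014, edgeR quasi-likelihood test), and against MSNP the log2 difference was -2.59 (SE 0.60, adjusted p = 0.00522).

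H1f4 (chr13:23804612-23806541, minus strand) stood at 2.19, 0.694 and 1.07 CPM in Control and at 0.265, 0.0796 and 0.183 CPM in HMSNP. The MSNP libraries gave 0.628, 0.702 and 0.533 CPM, and the libraries of both solid particles lay between 0.692 and 0.936 CPM. The lowest of the 12 other libraries thus had 0.533 CPM against 0.265 CPM in the highest HMSNP library. The log2 fold change of H1f4 in HMSNP was -2.89 against Control (SE 0.43, adjusted p = 0.00112, edgeR) and -1.82 against MSNP (SE 0.48, adjusted p = 0.0126). H1f4 shares 528 annotated bases on the same strand with H2bc6, an H2B gene, and reads there cannot be assigned to one of them.

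H1f3 (chr13:23737436-23744860, plus strand) stood at 2.34, 0.752 and 1.87 CPM in Control and at 0.206, 0.265 and 0.390 CPM in HMSNP. In MSNP it gave 0.496, 1.08 and 0.800 CPM, and in SNP100 and SNP50 1.22 to 1.76 CPM. The HMSNP libraries were again the 3 lowest, with the nearest MSNP library just above them. The log2 fold change of H1f3 was -2.49 against Control (SE 0.40, adjusted p = 0.00176, edgeR) and -1.44 against MSNP (SE 0.43, adjusted p = 0.028).

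H1f1 (chr13:23947649-23948389, plus strand), which encodes H1.1, was lower in both porous-particle groups. It gave 0.670, 0.318 and 0.703 CPM in Control, 0.0588, 0.0530 and 0.138 CPM in HMSNP and 0.0661, 0.270 and 0.0889 CPM in MSNP. All 6 libraries lay below the lowest Control library, while the HMSNP and MSNP libraries overlapped with each other. The log2 fold change of H1f1 was -2.66 in HMSNP (SE 0.51, adjusted p = 0.00622, edgeR) and -1.92 in MSNP (SE 0.47, adjusted p = 0.00807).

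H1f2 (chr13:23922791-23924350, plus strand) showed another order of the groups. It stood at 18.7, 16.5 and 27.2 CPM in Control and at 18.01, 17.4 and 18.6 CPM in HMSNP, so that these groups overlapped (log2 fold change -0.21, SE 0.14, adjusted p = 0.359, edgeR). In MSNP it gave 12.7, 12.1 and 13.0 CPM, the 3 lowest of the 15 libraries, as was so for MSNP in 7.98% of all genes tested. Control replicate 3, the library furthest from the other 2, was the highest. The log2 fold change in MSNP against Control was -0.72 (SE 0.14, adjusted p = 0.00123) and without that library -0.47 (adjusted p = 6.97e-05), while that in HMSNP was 0.03 without it (adjusted p = 0.858, edgeR), and HMSNP was above MSNP by 0.51 (SE 0.14, adjusted p = 0.0149). Against MSNP, then, H1f2 was higher in HMSNP while H1f3, H1f4 and H1f5 were lower.

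**Figure D2:**
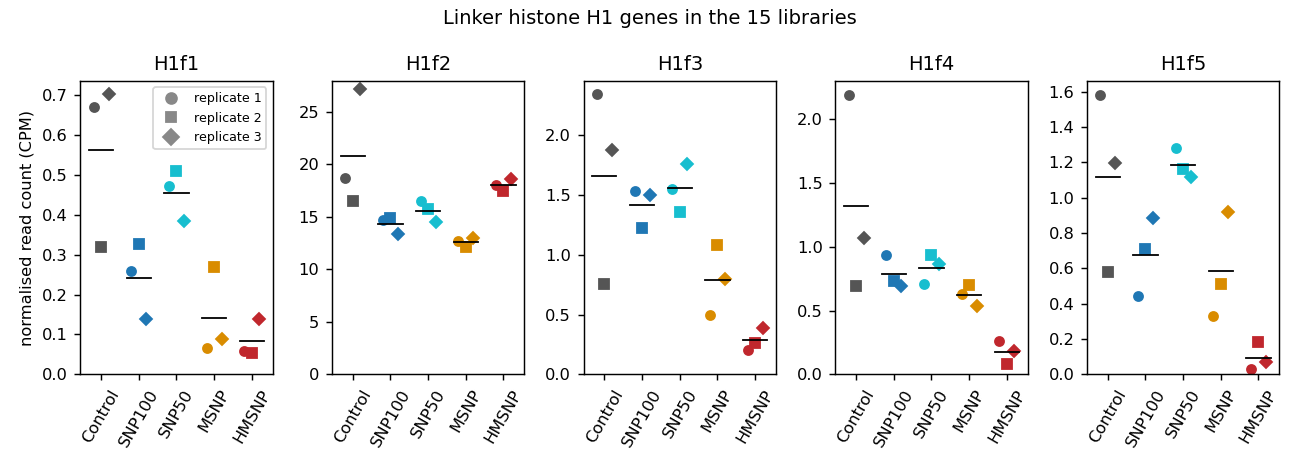
Normalised read count (CPM, linear axis from 0) of the 5 linker histone genes, 1 panel each with its own scale, where points are libraries, marker shapes are replicate numbers and black lines are group means (n = 3). HMSNP libraries sit at 0.0294 to 0.390 CPM in H1f3, H1f4 and H1f5, below every other library, but at 17.4 to 18.6 CPM in H1f2, above every SNP100, SNP50 and MSNP library.

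In HMSNP against Control, 8 of the 59 genes fell and 0 rose, while 2.70% of all genes tested fell in that comparison and 2.46% rose. Among the 8299 genes with a mean under 1 CPM, where most histone genes lie, 0.807% fell and 0.349% rose, with a median log2 fold change of -0.11. Besides H1f1, H1f3, H1f4 and H1f5 the genes that fell were H2bc3, H2bc8, H3c8 and H4c4. The log2 fold change was below 0 in 53 of the 59 genes, with a median of -1.44 against -0.04 over all genes tested. In 17 genes every HMSNP library lay below every Control library, where 12.0% of all genes did so. By class, the median log2 fold change was -2.66 for H1, -0.73 for H2A, -1.01 for H2B, -1.53 for H3 and -1.98 for H4.

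H4c4, an H4 gene, gave 0.883, 0.231 and 0.495 CPM in Control and 0.0294, 0.133 and 0.115 CPM in HMSNP. Its log2 fold change was -2.44 (SE 0.55, adjusted p = 0.0187, edgeR), and the HMSNP libraries lay below all 12 others, as they also did in H2bc18 and H4c2. With H1f3, H1f4 and H1f5 this makes 6 of the 59 genes in which HMSNP lay below every other library, against 3.62% of all genes tested. H2bc8, an H2B gene, had a log2 fold change of -1.50 (SE 0.37, adjusted p = 0.0298) and H3c8, an H3 gene, one of -1.69 (SE 0.42, adjusted p = 0.0321). H4c4 lost its call in 8 of 26 alternatives and H3c8 in 9 of 25. H2bc3 had at most 3 counts in each HMSNP library, 7 counts in all against 34 in Control, a ratio of 0.189 with a 95% exact interval of 0.0707 to 0.433 that covers counting error only.

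In MSNP against Control, 7 genes fell and 0 rose, where 11.0% of all genes tested fell and 11.8% rose. They were H1f1, H1f2, H1f3, H1f4, H2ac11, H3c2 and H3c8. H1f3 had a log2 fold change of -1.04 (SE 0.35, adjusted p = 0.0439, edgeR) and H1f4 one of -1.07 (SE 0.36, adjusted p = 0.0457), but in both genes MSNP and Control libraries overlapped. H1f3 lost its call in 18 of 26 alternatives and H1f4 in 17 of 26, each in 12 of the 15 fits that leave out 1 library, and without Control replicate 1 their log2 fold changes were -0.69 (adjusted p = 0.186) and -0.48 (adjusted p = 0.272). For H1f5 the log2 fold change was -0.91 and did not pass the test (adjusted p = 0.128). H3c8 gave 0.198, 0.162 and 0.119 CPM in MSNP, all below the 0.639, 0.260 and 0.547 CPM of Control (log2 fold change -1.58, SE 0.43, adjusted p = 0.0138). H2ac11 and H3c2 had at most 3 counts in each MSNP library: the ratio to Control was 0.233 for H2ac11 (4 against 18 counts, 95% exact interval 0.0573 to 0.707) and 0.0806 for H3c2 (1 against 13 counts, 0.0019 to 0.536). H2ac11 lost its call in 14 of 25 alternatives and H3c2 in 18 of 24. The median log2 fold change of the set was -0.75, against -0.05 over all genes. Among the 8299 genes with a mean under 1 CPM, 5.04% fell and 3.29% rose in MSNP, with a median of -0.22.

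The solid particles gave fewer differences. In SNP100 against Control and in SNP50 against Control 0 of the 59 genes passed the test by edgeR, where 0.912% and 1.41% of all genes did, and 8 and 5 genes had an unadjusted p under 0.05, as 10.5% and 12.0% of all genes had. DESeq2 called 1 gene in each, H1f2 in SNP100 and H2ac23 in SNP50. By DESeq2 1.26% of all genes fell and 1.25% rose in SNP100, and 2.17% fell and 1.26% rose in SNP50. The median log2 fold change was -0.48 in SNP100 and -0.20 in SNP50. H1f2 in SNP100 stood at 14.7, 14.9 and 13.3 CPM, below every Control library, with a log2 fold change of -0.54 (SE 0.14) that did not pass the test (adjusted p = 0.0922). Between SNP50 and SNP100, whose doses differ, 0 of the 59 genes and 0.00% of all genes passed the test by edgeR, DESeq2 called 0 of the 59 as well, and 3 had an unadjusted p under 0.05, as 4.37% of all genes had. H1f5 was higher in each SNP50 library than in each SNP100 library, but its log2 difference of 0.81 (SE 0.40) did not pass it (adjusted p = 0.903).

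**Figure D3:**
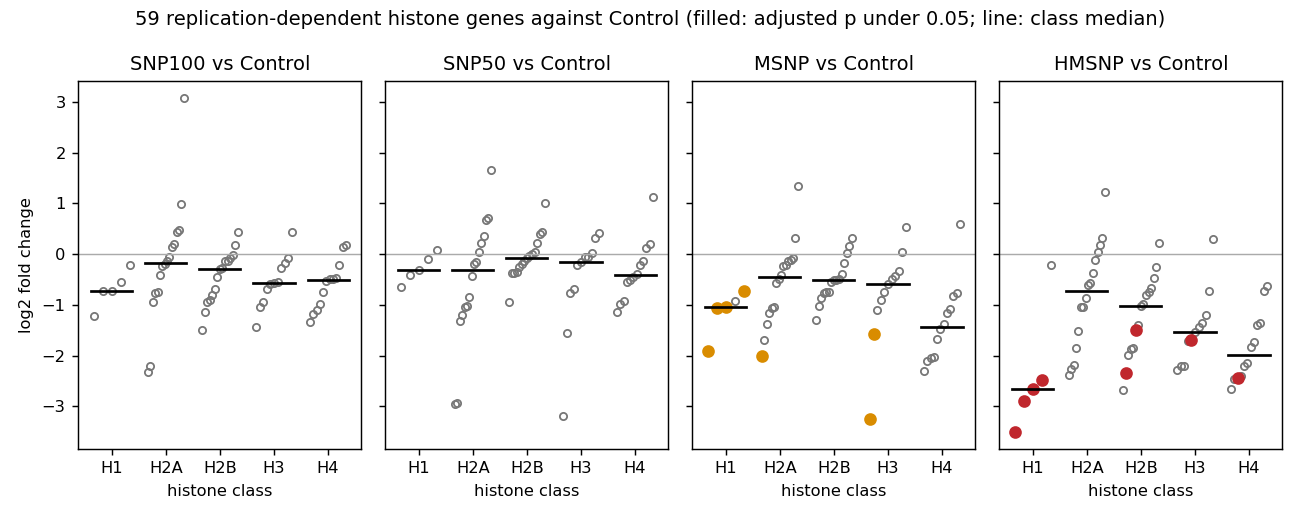
Fitted log2 fold change against Control (y axis) of each of the 59 genes, by histone class (x axis), in 1 panel for each particle, where filled points passed the test (adjusted p under 0.05), open points did not and black lines are class medians. Filled points appear in the MSNP panel (7) and the HMSNP panel (8) only, and the H1 median in HMSNP lies at -2.66.

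HMSNP and MSNP were given at the same dose and time, and here 4 genes were lower in HMSNP and 2 were higher, where 11.0% of all genes tested were lower and 9.22% higher. Beside H1f3, H1f4 and H1f5, the lower gene was H4c18, an H4 gene with 6 counts in HMSNP against 22 in MSNP (ratio 0.239, 95% exact interval 0.0792 to 0.607). Beside H1f2, the higher gene was H2bc21 (chr3:96128435-96131054), an H2B gene without a stem-loop match. H2bc21 gave 4.70, 3.82 and 4.77 CPM in HMSNP and 2.25, 2.78 and 3.14 CPM in MSNP, with a log2 difference of 0.70 (SE 0.17, adjusted p = 0.00724, edgeR). Its Control libraries, at 4.54, 3.01 and 3.90 CPM, overlapped with both. The median log2 difference of the 59 genes between HMSNP and MSNP was -0.62.

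MSNP against SNP100, at different doses, gave 1 gene that was lower, H2ac24, where 7.53% of all genes tested were lower. H2ac24 stood at 0.430, 0.594 and 0.771 CPM in MSNP and at 0.963, 3.32 and 1.05 CPM in SNP100, with a log2 difference of -1.56 (SE 0.47, adjusted p = 0.0323, edgeR). SNP100 replicate 2 was the highest of all 15 libraries, and without it the difference was -0.74 (adjusted p = 0.242). Every stretch of 150 bases of H2ac24 occurs elsewhere in the genome, in H2ac23 among other places, and the counts of both genes are uncertain for that reason. The same holds for H2ac19 and H2bc24, and in part for H3c6, H3c7, H3c15 and H4c16, while 51 of the 59 genes had no such copy.

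Carry-over RNA moved with part of these values. The 50 genes with a mean under 1 CPM summed to 23.4, 7.75 and 15.4 CPM in Control, to 11.0, 12.6 and 10.4 in SNP100 and to 15.2, 13.3 and 12.1 in SNP50. In MSNP they summed to 6.51, 10.8 and 9.34 CPM and in HMSNP to 5.47, 5.81 and 6.30 CPM. The highest sum was in Control replicate 1, the library with the most Rn7sk and Rpph1, and the HMSNP libraries, with little of either RNA, were the lowest 3. Other libraries departed from this order. SNP100 replicate 2, next highest in Rn7sk (4.33 CPM) and Rpph1 (1.42 CPM), had a sum of 12.6 CPM. Control replicate 3, with the next highest sum (15.4 CPM), read 0.573 CPM of Rn7sk. Rpph1 itself fell in HMSNP against Control by 4.08 on the log2 scale (SE 1.09, adjusted p = 0.0447, edgeR), and the value for Rn7sk was -3.98 on that scale (SE 1.19) that did not pass the test (adjusted p = 0.0696). Of the 7 non-polyadenylated small RNAs tested, 1 fell in HMSNP and 0 changed in the other treated groups against Control. Of all genes tested, 2.70% fell and 2.46% rose in HMSNP and 11.0% fell and 11.8% rose in MSNP. In SNP100 and SNP50, 0.912% and 1.41% of all genes passed the test.

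In 3 libraries with near readings of Rn7sk both carry-over RNAs were read from few counts. Rn7sk stood at 0.353 CPM in HMSNP replicate 1, 0.331 in MSNP replicate 1 and 0.318 in Control replicate 2. These readings came from 12, 10 and 11 counts, so how near the levels truly lay is uncertain. Rpph1 stood there at 0.117, 0.198 and 0.289 CPM, from 4, 6 and 10 counts, so few that their order is uncertain. Over the same 3 libraries, H1f3, H1f4 and H1f5 together read 0.50, 1.45 and 2.02 CPM. The 47 genes under 1 CPM outside the H1 class read 5.11, 5.49 and 6.16 CPM. Both sums had the order of the Rpph1 readings in these single libraries, 1 from each group, but those readings rest on few counts. With the log2 CPM of Rn7sk as a covariate, 3 of the 8 genes still fell in HMSNP against Control, where 1.68% of all genes tested fell and 1.06% rose. The 3 were H1f3 (log2 fold change -2.04, adjusted p = 0.0219, edgeR), H1f4 (-2.19, adjusted p = 0.00661) and H1f5 (-3.11, adjusted p = 0.0149). H1f1 lost its call in that fit (-2.23, adjusted p = 0.0548), and so did H1f3 in HMSNP against MSNP (-1.18, adjusted p = 0.0685), whereas H1f4 and H1f5 kept theirs (adjusted p = 0.0118 and 0.0126). With Rpph1 as the covariate instead, a fit added after seeing the data, the same 3 genes fell in HMSNP against Control, where 1.63% of all genes tested fell and 1.05% rose. H1f3 fell by 2.03 (adjusted p = 0.0341, edgeR), H1f4 by 2.11 (adjusted p = 0.0162) and H1f5 by 3.0 (adjusted p = 0.0233) on the log2 scale. H1f1 (adjusted p = 0.0659) and H1f3 against MSNP (adjusted p = 0.0529) did not pass there, whereas H1f4 and H1f5 against MSNP did (adjusted p = 0.0101 and 0.01). The part of carry-over beyond these fits was not tested.

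**Figure D4:**
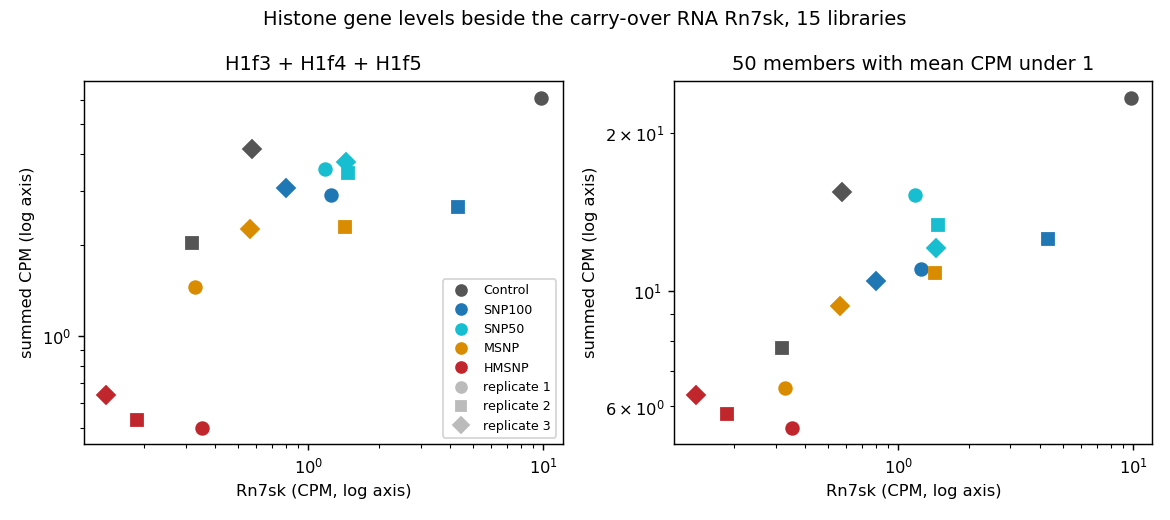
Summed level (CPM, log axis) of H1f3, H1f4 and H1f5 (left) and of the 50 histone genes with a mean under 1 CPM (right) against the level of Rn7sk (CPM, log axis), where each point is 1 of 15 libraries, colours are groups and marker shapes replicate numbers. On the left HMSNP 1, with 0.50 CPM, sits well below MSNP 1 (1.45 CPM) and Control 2 (2.02 CPM). The Rn7sk readings of these 3 libraries are near each other but rest on only 12, 10 and 11 counts. Rpph1 read 0.117, 0.198 and 0.289 CPM in these libraries, from only 4, 6 and 10 counts. On the right the same 3 libraries lie at 5.47, 6.51 and 7.75 CPM.

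How many genes were called depended on the Control libraries. Without Control replicate 1, 4 genes fell in HMSNP against Control (H1f1, H1f3, H1f4 and H1f5) and 2 in MSNP against Control (H1f1 and H1f2), where 3.29% and 10.8% of all genes tested fell and 2.40% and 11.8% rose. Without Control replicate 2, the Control library with the least carry-over, 22 genes fell in HMSNP and 22 in MSNP, and the calls over all genes rose as well, with 11.9% and 16.8% lower and 13.3% and 16.4% higher. Without Control replicate 3, 10 fell in HMSNP, and 7 fell and 1 rose in MSNP, where 4.20% and 13.2% of all genes fell and 4.47% and 16.3% rose. H1f3, H1f4 and H1f5 fell in HMSNP against Control whichever of the 15 libraries was left out, with log2 fold changes between -2.81 and -2.14 for H1f3, between -3.23 and -2.30 for H1f4 and between -4.35 and -3.12 for H1f5. In a fit of only the 6 libraries of that comparison, 0 of the 59 genes passed, where 0.342% of all genes tested fell and 0.097% rose. The adjusted p in that fit was 0.113 for H1f3, 0.121 for H1f4 and 0.078 for H1f5 (edgeR), with log2 fold changes of -2.49, -2.89 and -3.51.

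H2ac15 and H2ac22, neighbouring H2A genes on chromosome 13 (chr13:21937605-21937997 and chr13:21970996-21971388, both on the minus strand), were high or low together from library to library within every group. H2ac15 read 4.37 to 7.99 CPM in 8 libraries and 0.0229 to 0.439 CPM in the other 7, with no library between. H2ac22 split the same 15 libraries in the same way, at 1.45 to 3.25 CPM and at 0.00 to 0.236 CPM. The 8 high libraries were SNP100 replicates 2 and 3, SNP50 replicate 3, MSNP replicates 1 and 3, HMSNP replicate 2 and Control replicates 2 and 3, so that every group held both kinds. Neither gene passed the test in any of the 7 comparisons, and the SE of the log2 fold change of H2ac15 against Control was 1.35 to 1.46. Rn7sk lay between 0.186 and 4.33 CPM in the 8 high libraries and between 0.138 and 9.74 CPM in the 7 low ones, and its part in the split was not tested. Neither gene has an exact copy of 150 bases elsewhere, but each overlaps a predicted miRNA gene on the other strand, by 138 and 141 bases. Of the 59 genes, 29 share annotated exon bases with another gene, 22 of them only with genes on the opposite strand, and whether strand was used in counting is not given in the sources used here.

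**Figure D5:**
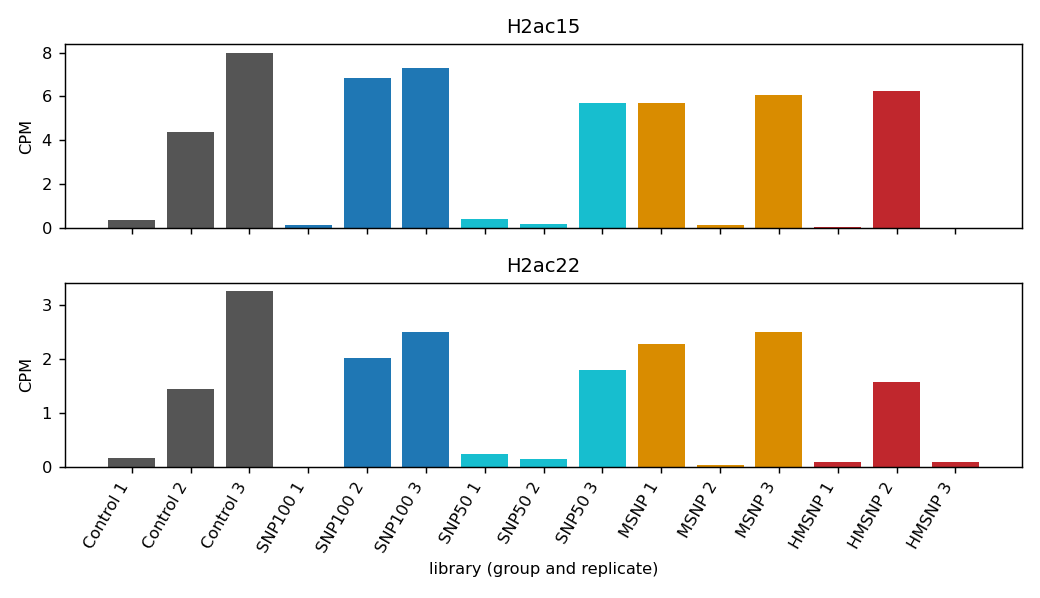
Normalised read count (CPM, linear axis from 0) of H2ac15 (top) and H2ac22 (bottom) in each of the 15 libraries, coloured by group. The same 8 libraries are high in both genes, and each group holds at least 1 high and 1 low library.

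The other core histone genes among the 3 highest per length in their class did not pass the test in any of the 7 comparisons. H2ac23, whose reads can also come from H2ac24, gave 2.57, 1.81 and 2.21 CPM in SNP50, above all 12 other libraries, where the highest was 1.67 CPM and where 0.686% of all genes tested had SNP50 on top in this way. Its log2 fold change in SNP50 against Control was 0.71 (SE 0.20, adjusted p = 0.113, edgeR). H2bc4 stood at 4.13, 3.59 and 3.59 CPM in MSNP, at 2.97, 2.36 and 2.29 CPM in HMSNP and at 3.08, 1.85 and 4.09 CPM in Control, whose range spans most of both. H4c9, the highest H4 gene, gave 0.892, 0.783 and 1.10 CPM in MSNP and 1.12, 1.01 and 1.05 CPM in HMSNP against 1.40, 0.896 and 2.55 CPM in Control. Over all 15 libraries H2bc18 lay between 0.0458 and 0.639 CPM, H3c3 between 0.173 and 0.599, H3c6 between 0.0588 and 0.810, H4c12 between 0 and 0.457 and H4c6 between 0.033 and 0.792 CPM.

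H2ac7, another H2A gene, gave 0.884, 0.272 and 0.831 CPM in SNP100 and 0.101, 0.510 and 0.0960 CPM in SNP50, against 0.0913, 0 and 0.130 CPM in Control. Every SNP100 library lay above every Control library, but the difference, 3.08 on the log2 scale (SE 0.77), did not pass the test (adjusted p = 0.0844, edgeR), and the Control libraries held at most 5 counts. H2ac7 passed in SNP100 against Control without a filter on low counts (adjusted p = 0.0453), with the length offset (0.0406) and without Control replicate 3 (0.0239), but not without Control replicate 1 (0.162) or 2 (0.0924). The MSNP libraries lay between 0.0991 and 0.267 CPM, and the HMSNP libraries held 0, 3 and 1 counts.

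Genes that make, process and use histone RNA were read from lists. The 10 replacement histone genes tested were listed as polyadenylated and made outside S phase as well. Among them H2ax met the stem-loop search after its stop codon, so whether its RNA here was polyadenylated is not known. In HMSNP against Control 0 of the 10 passed the test (log2 fold changes -0.45 to -0.10), and 7 fell in MSNP against Control. Of all genes tested, 2.70% fell and 2.46% rose in HMSNP and 11.0% fell and 11.8% rose in MSNP. The summed level of the 10 replacement genes was 2943 CPM in Control replicate 3 against 2177 and 2058 CPM in replicates 1 and 2. Without replicate 3 the counts were 0 in HMSNP, and 5 lower and 1 higher in MSNP. Of all genes, 4.20% then fell and 4.47% rose in HMSNP, and 13.2% fell and 16.3% rose in MSNP. Without Control replicate 2, 6 of the 10 fell in HMSNP, where 11.9% of all genes fell and 13.3% rose. Among the 7, H1f0 (the replacement linker histone H1.0) had a log2 fold change of -0.73 (SE 0.07, adjusted p = 1.35e-06, edgeR) in MSNP and was higher in HMSNP than in MSNP by 0.63 (adjusted p = 6.95e-06). H3f3b fell in MSNP by 0.40 (SE 0.08, adjusted p = 0.00219) and stood at -0.19 on the log2 scale in HMSNP (adjusted p = 0.191). H1f0 thus shared with H1f2, not with H1f3 to H1f5, the order MSNP below HMSNP.

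Of 19 genes for transcription and 3′ end processing of histone mRNA, 0 passed the test in HMSNP against Control, where 2.46% of all genes rose and 2.70% fell. Without Control replicate 2, 7 of the 19 rose and 5 fell there, where 13.3% of all genes rose and 11.9% fell. Npat, which activates histone transcription, stood at 20.9 CPM in Control replicate 3 and at 37.1 and 43.1 CPM in replicates 1 and 2. Slbp, whose protein binds the stem-loop, stood at -0.07 on the log2 scale in HMSNP (SE 0.10, adjusted p = 0.697, edgeR) and at -0.26 in MSNP (SE 0.10, adjusted p = 0.0698). In MSNP, where 11.8% of all genes rose and 11.0% fell, 2 of the 19 genes rose and 0 fell. They were Ncbp1 (a cap-binding protein, log2 fold change 0.35, adjusted p = 0.000558, edgeR) and Zfp473 (a partner of the U7 processing machinery, 0.86, adjusted p = 0.00803). Of 16 histone chaperone genes 0 passed in HMSNP, beside the same shares of all genes in either group. In MSNP 1 rose and 3 fell. Chaf1b (a subunit of chromatin assembly factor 1) rose by 0.54 on the log2 scale (adjusted p = 2.94e-05, edgeR) while Asf1a, Nap1l1 and Nasp fell, by 0.45, 0.23 and 0.23.

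Of 30 S phase genes, 5 rose and 1 fell in HMSNP against Control, and 5 rose and 5 fell in MSNP, beside 2.46% and 2.70% of all genes tested in HMSNP and 11.8% and 11.0% in MSNP. Without Control replicate 3, 10 rose and 1 fell in HMSNP and 12 rose and 3 fell in MSNP. Of all genes, 4.47% then rose and 4.20% fell in HMSNP, and 16.3% rose and 13.2% fell in MSNP. Without Control replicate 2, 9 rose and 5 fell in HMSNP, where 13.3% of all genes rose and 11.9% fell. In HMSNP the largest increase was that of Mcm10, a replication initiation factor (log2 fold change 0.35, SE 0.06, adjusted p = 0.0042, edgeR), with Mcm2 (a helicase subunit) at 0.34 and Cdc6 (which loads the helicase) at 0.33. Gins3, also of the replicative helicase, fell by 0.34 (adjusted p = 0.00543), and Pcna (the sliding clamp) had a log2 fold change of -0.26 (adjusted p = 0.191). In MSNP Mcm2 rose by 0.43 and Cdt1 by 0.43, while Mcm6 fell by 0.31, Tk1 (thymidine kinase) by 0.73 and Ccne1 (cyclin E1) by 0.31. The median log2 fold change of the 30 genes was 0.09 in HMSNP and 0.00 in MSNP, beside -1.44 and -0.75 for the 59 histone genes. For the 7 non-polyadenylated small RNAs it was -2.40 and -0.97.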

How the data were processed

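Total RNA of RAW 264.7 cells was enriched for poly(A) RNA, made into directional libraries and sequenced in pairs by the authors. The deposited table gives the raw counts of each library in a column of its own. The submitters' processing notes name cutadapt 1.16, STAR 2.7.9a, featureCounts 1.6.3 and the build GRCm39. The annotation, the strand setting and the treatment of reads with several matches are not given in the sources used here. Symbols, positions and exon lengths were taken by gene identifier from GENCODE vM39, which holds 56630 of the 57186 identifiers, and the other 556 stayed in the tests. Groups came from the sample labels, doses and times from the study's methods, and 0 columns were left unused.

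Genes with at least 10 counts over the 15 libraries were tested in R 4.3.3 with edgeR 4.0.16 (TMM, 1 model of all libraries with the group as the only term, quasi-likelihood test, Benjamini-Hochberg adjustment over 19839 genes, threshold 0.05), in 7 comparisons. The study used DESeq2, which was run here as an alternative. CPM values are per effective library size. A group with at most 3 counts in each library is given as a ratio of summed counts with an exact interval, and such intervals and floors cover counting error only. Tested on simulated data drawn for HMSNP against Control over 19839 genes, the fit recovered 50, 37, 45 and 50 of 50 genes changed 0.25-, 0.5-, 2- and 4-fold, with 7 false calls. The changed genes were drawn from genes with more counts than most histone genes here, whose median was 2 to 14 counts per library. All groups were simulated with the same spread, without the wider spread of the Control libraries. Recovery and false calls at the level of the histone genes were not tested.

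The genes of the set and all gene lists were chosen with earlier results of these data known. Library values are given by rule for the 3 genes per class with the highest mean CPM per kb, for the called genes with the 5 largest changes in each direction in a comparison, for H1f3, H1f4, H1f5 and H2ac7, which the study names, for Rn7sk and Rpph1, and for the 3 lowest p per direction and list in HMSNP and MSNP against Control. Of these, genes with no difference to describe are given by their range. Stem-loops were searched in GRCm39 and exact copies of 150 bases with blastn 2.17.0. Promoters were matched in RefSeq's table by gene identifier, or by symbol where that found none, for 51 of the 59 genes. Alternatives were DESeq2 1.42.0, RLE normalization, the filterByExpr filter, no filter, a replicate block, Rn7sk as a covariate, an offset for transcript length, only the 6 libraries of a comparison, and each library left out in turn, with 2 combinations and Rpph1 as a covariate added after seeing the data.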

Additional observations from a re-analysis of the deposited data

Results flagged for a closer look

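Direct tests between particle groups marked 7 results. Between HMSNP and MSNP, whose comparisons with Control share the same Control libraries, the log2 difference was 0.51 for H1f2, -1.82 for H1f4, -1.44 for H1f3, -2.59 for H1f5, 0.70 for H2bc21 and -1.99 for H4c18. H4c18 rests on 6 and 22 counts and lost its call in 16 of 26 alternatives, whereas H1f5 and H2bc21 lost it in 0. Between MSNP and SNP100, at different doses, the log2 difference was -1.56 for H2ac24, which rests on SNP100 replicate 2 and was -0.74 without that library.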

How the results depend on the processing

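No log2 fold change of a named gene that passed the test turned its direction in the 515 values recomputed for 20 gene and comparison pairs, and 130 of them no longer passed the threshold. With Rn7sk as a covariate 3 genes of the set were called in HMSNP against Control, 3 in MSNP against Control and 0 in MSNP against SNP100. Of all genes tested, 1.68%, 10.6% and 6.38% fell there and 1.06%, 11.5% and 8.91% rose. That covariate without Control replicate 1 gave 3, 4 and 0, where 1.25%, 9.84% and 4.89% of all genes fell and 0.881%, 10.6% and 7.14% rose. Rpph1 as the covariate gave 3, 2 and 0, where 1.63%, 10.7% and 6.87% of all genes fell and 1.05%, 11.2% and 9.44% rose. The fits of only the 6 libraries of a comparison gave 0 in HMSNP and 0 in MSNP against Control, 11 in HMSNP against MSNP and 8 in MSNP against SNP100. Of all genes tested, 0.342%, 5.61%, 20.4% and 19% fell in those fits, in that order, and 0.097%, 7.37%, 20.5% and 21.9% rose. DESeq2 gave 5 in HMSNP, 1 in SNP100 and 1 in SNP50 against Control, where 5.16%, 1.26% and 2.17% of all genes fell and 4.64%, 1.25% and 1.26% rose. The length offset gave 4 in MSNP, 2 in SNP100 and 2 in SNP50 against Control, where 12.9%, 0.706% and 1.68% of all genes fell and 13.1%, 0.786% and 0.852% rose. Without Control replicate 3 it gave 2 in SNP100 and 3 in SNP50 against Control and 4 in MSNP against SNP100. There 3.03%, 9.62% and 16.5% of all genes fell and 2.88%, 8.21% and 17.3% rose. Without a filter on low counts 1 gene was called in SNP100 against Control, where 0.239% of all genes fell and 0.355% rose. Leaving out 1 library at a time gave 4 to 22 genes in HMSNP, 2 to 22 in MSNP, 0 to 2 in SNP100 and 0 to 2 in SNP50 against Control, 3 to 7 in HMSNP against MSNP, 0 to 4 in MSNP against SNP100 and 0 in SNP50 against SNP100. Of all genes, 1.3% to 11.9%, 7.62% to 16.8%, 0.0916% to 2.32%, 0.275% to 9.3%, 8.74% to 18.4%, 5.27% to 14.8% and 0% to 0.148% fell, in that order. The shares that rose were 1.08% to 13.3%, 9.8% to 16.4%, 0.199% to 2.84%, 0.158% to 9.63%, 6.96% to 15.5%, 8.09% to 18.2% and 0% to 0.286%. The cause of these differences was not tested.

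Same-numbered libraries of different groups had correlations of -0.52 to 0.57 between pairs. Differently numbered libraries were not compared in this way, so these values cannot show whether the numbers pair the samples. With the replicate number as a block the count in MSNP against Control went from 7 to 4, and the counts of the other 6 comparisons were the same. The share of all genes that fell in MSNP against Control went from 11.0% to 10.4%. At this depth, 29 to 35 of the 59 genes had at most 3 counts in an HMSNP library.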
